A study of Mus musculus with 30 samples.

Results

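The 44 genes described here encode the machinery of mitosis and cytokinesis: the CDK1 cyclin kinase and its regulators, other mitotic kinases, the chromosomal passenger complex, the spindle checkpoint, the kinetochore, mitotic kinesins, spindle proteins, cytokinesis proteins, condensin and their transcription factors. They were chosen by function, as 45 symbols, and 44 of them were measured among 18193 genes, each by its brightest probe set, taken as the mean over the 30 arrays. Ccnb1 was not analysed here. RNA came from embryonic fibroblasts of MyoD-/-/Myf5-/- mice, and a retrovirus had been put into every culture. It carried wild-type MyoD fused to the hormone-binding domain of the estrogen receptor (ER-MyoD wt), that fusion with point mutations in place of lysines 99, 102 and 104, where it can then not be acetylated (ER-MyoD RRR), or no insert (empty retrovirus). The times are the hours for which cells of each construct were kept in a muscle differentiation medium with beta-estradiol, the ligand of the receptor domain. There were 10 groups of 3 arrays: at 0 h ER-MyoD wt, and at 6, 12 and 24 h each of the constructs. The 0 h time was analysed here for ER-MyoD wt alone, so a difference from 0 h held medium, hormone and MyoD together. The labels give neither the share of cells that carried a construct nor the level of the fusion protein. They do not say that replicates were separate cultures, so the p-values rest on the spread among these 3 samples a group, which may be technical.

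MyoD is a transcription factor that can turn fibroblasts into skeletal muscle cells, and myoblasts leave the cell cycle as they differentiate. Mitosis genes are transcribed mostly in the G2 and M phases, under MuvB complexes with B-Myb and FOXM1, and are repressed in resting cells by the DREAM complex, which shares the MuvB core. In a mixed culture their RNA is a common readout of how many cells divide. In these bulk samples, fewer cells in mitosis and less RNA per cell cannot be told apart.

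The values were deposited signal intensities on a linear scale, from Affymetrix mouse expression arrays with biotin-labelled total RNA. Each difference below is a log2 difference of quantile-normalised signals with a pseudocount of 16, given ± the standard error of a limma model of all 30 arrays (n = 3 arrays a group), which understates changes of dim genes. A gene passed, and is said to have risen, fallen or been higher or lower, at a Benjamini-Hochberg adjusted p under 0.05 over the 18193 genes. Replicates correlated at r = 0.946 to 0.973 over all genes. Replicate 2 of ER-MyoD RRR at 6 h had 3′ to 5′ signal ratios of 2.44 for Gapdh and 3.61 for Actb, against 0.815 to 1.40 for Gapdh on the other arrays, and it was the highest of its 3 arrays for 32 of the 44 members. Of 10 fibroblast markers, 7 to 10 exceeded a mean signal of 100 in each group, and the lowest group means were those of Lum (25.2), Fap (53.9) and Pdgfra (67.3). The summed signal of 8 skeletal muscle markers was 114.5 to 219.9 on the empty retrovirus arrays at any time, 982.8 to 1092 in ER-MyoD wt at 0 h, 44159 to 52617 in ER-MyoD wt at 24 h and 30934 to 34635 in ER-MyoD RRR at 24 h. Sums of blood, endothelial, epithelial, adipocyte and neural markers stayed at or under 923.4 on every array. Among these markers, only Csf1r (group means of 117.1 to 492.8) and Epcam (128.9 to 419.4) exceeded 100 in every group. Of the members, 31 had more than 1 probe set. Another probe set with a mean of at least 100 existed for 20 members, and 27 of these 28 probe sets had the direction of the one used when ER-MyoD wt was set against empty retrovirus at 6 h (not 1 of Top2a) and at 24 h (not 1 of Tpx2). For wt at 24 h against 0 h it was 26 (not 2 of Smc4), and for RRR against wt at 24 h it was 25 (not 1 each of Foxm1, Hmmr and Prc1). Probe sets of the type that can hybridise to related transcripts represented Cdc25c, Aurkb, Incenp, Cdc20 and Kif2c, and probe sets of the type that matches several transcripts represented Cks2, Nek2, Cdca8 and Prc1, so the values of both sets of genes are less certain.

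The promoters of the 6 members that differed most between ER-MyoD wt at 24 h and 0 h, among those in the promoter table, are shown here, since promoter elements of this gene class are known: the cell cycle homology region, TTTGAA or TTCGAA, bound by MuvB, and the CCAAT box, bound by NF-Y. Sequences are from RefSeq, assembly GRCm38.p6, from 250 bases before to 50 bases after the annotated start, written 5′ to 3′ on the gene's strand. Capitals mark TTTGAA and the CCAAT box. On the opposite strand the first reads TTCAAA and the second reads ATTGG.
Birc5, chr11:117848987-117849286 (plus strand): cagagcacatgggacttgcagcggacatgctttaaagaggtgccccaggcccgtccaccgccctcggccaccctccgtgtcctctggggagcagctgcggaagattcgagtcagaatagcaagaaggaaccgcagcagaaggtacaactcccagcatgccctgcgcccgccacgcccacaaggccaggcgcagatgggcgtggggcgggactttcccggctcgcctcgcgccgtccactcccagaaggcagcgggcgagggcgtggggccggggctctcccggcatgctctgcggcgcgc
Cenpa, chr5:30666636-30666935 (plus strand): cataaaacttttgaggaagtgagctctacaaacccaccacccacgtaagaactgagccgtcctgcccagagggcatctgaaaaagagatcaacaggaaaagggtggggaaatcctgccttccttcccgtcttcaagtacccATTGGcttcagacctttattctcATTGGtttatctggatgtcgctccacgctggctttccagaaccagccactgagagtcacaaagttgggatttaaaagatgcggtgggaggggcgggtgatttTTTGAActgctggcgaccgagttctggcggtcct
Cdca8, chr4:124936868-124937167 (minus strand): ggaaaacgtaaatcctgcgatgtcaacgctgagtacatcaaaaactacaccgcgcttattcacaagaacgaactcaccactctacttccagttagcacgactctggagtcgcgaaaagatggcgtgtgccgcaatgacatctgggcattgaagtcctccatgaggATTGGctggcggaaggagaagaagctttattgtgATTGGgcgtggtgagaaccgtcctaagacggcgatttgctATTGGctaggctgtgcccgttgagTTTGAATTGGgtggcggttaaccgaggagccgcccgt
Cdc20, chr4:118437294-118437593 (minus strand): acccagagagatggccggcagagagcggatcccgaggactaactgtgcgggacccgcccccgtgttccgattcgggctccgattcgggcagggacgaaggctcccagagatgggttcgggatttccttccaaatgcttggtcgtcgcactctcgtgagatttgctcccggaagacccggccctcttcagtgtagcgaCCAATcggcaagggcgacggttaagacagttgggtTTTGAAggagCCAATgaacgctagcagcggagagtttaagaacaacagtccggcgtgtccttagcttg
Mad2l1, chr6:66534971-66535270 (plus strand): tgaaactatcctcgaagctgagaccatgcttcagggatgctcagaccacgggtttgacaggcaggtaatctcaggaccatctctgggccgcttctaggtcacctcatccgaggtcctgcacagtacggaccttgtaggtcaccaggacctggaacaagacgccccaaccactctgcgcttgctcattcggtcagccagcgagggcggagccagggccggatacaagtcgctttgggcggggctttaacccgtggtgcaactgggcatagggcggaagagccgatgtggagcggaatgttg
Anln, chr9:22389157-22389456 (minus strand): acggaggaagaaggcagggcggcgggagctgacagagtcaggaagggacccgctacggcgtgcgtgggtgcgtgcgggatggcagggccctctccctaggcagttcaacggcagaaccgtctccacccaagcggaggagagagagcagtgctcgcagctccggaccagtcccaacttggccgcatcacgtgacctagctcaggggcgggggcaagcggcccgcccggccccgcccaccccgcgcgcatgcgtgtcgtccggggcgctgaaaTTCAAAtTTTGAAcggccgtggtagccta

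Cenpa, Cdca8 and Cdc20 had both elements in this window, Anln had 2 copies of TTTGAA in opposite orientation and no CCAAT, and neither was in the windows of Birc5 and Mad2l1. In Cdca8 the TTTGAA element and 1 CCAAT box, read as ATTGG, shared 1 base. Promoters of 36 members were in the table. TTTGAA was present, on either strand, in 27 of the 36 (75%), against 18.1% of 27025 genes, and TTCGAA in 3 (8.33%, against 1.57%). A match to either lay within 60 bases of the start in 25 (69.4%, against 6.05%). CCAAT was present in 28 (77.8%, against 37.9%), at 2 or more places in 18 (50%, against 12.2%), and together with TTTGAA or TTCGAA in 25 (69.4%, against 7.7%). Of the E-box letters of MyoD, CAGCTG was found in 4 of 36 (11.1%, against 16.1%) and CACCTG in 2 (5.56%, against 20%). A match is a description of the letters and not a measured binding site. The table used had no entry for Aurkb, Ccna2, Cdc25c, Foxm1, Incenp, Kif20a, Smc4 and Tpx2.

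In each construct the members' median was highest at 12 h and lowest at 24 h. Their median log2 signal in ER-MyoD wt was 8.94 at 0 h, 9.55 at 6 h, 9.74 at 12 h and 7.27 at 24 h. The RRR groups had 9.47, 9.83 and 7.87 at 6, 12 and 24 h, and the empty retrovirus groups 8.68, 9.26 and 8.24. The lowest of the 10 groups was ER-MyoD wt at 24 h for 40 of the 44 members. With empty retrovirus, 12 h was the highest time for 43 of 44. The highest and lowest groups were not counted over all genes. By these medians both fusions were above the control at 6 and 12 h and below it at 24 h.

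**Figure D1:**
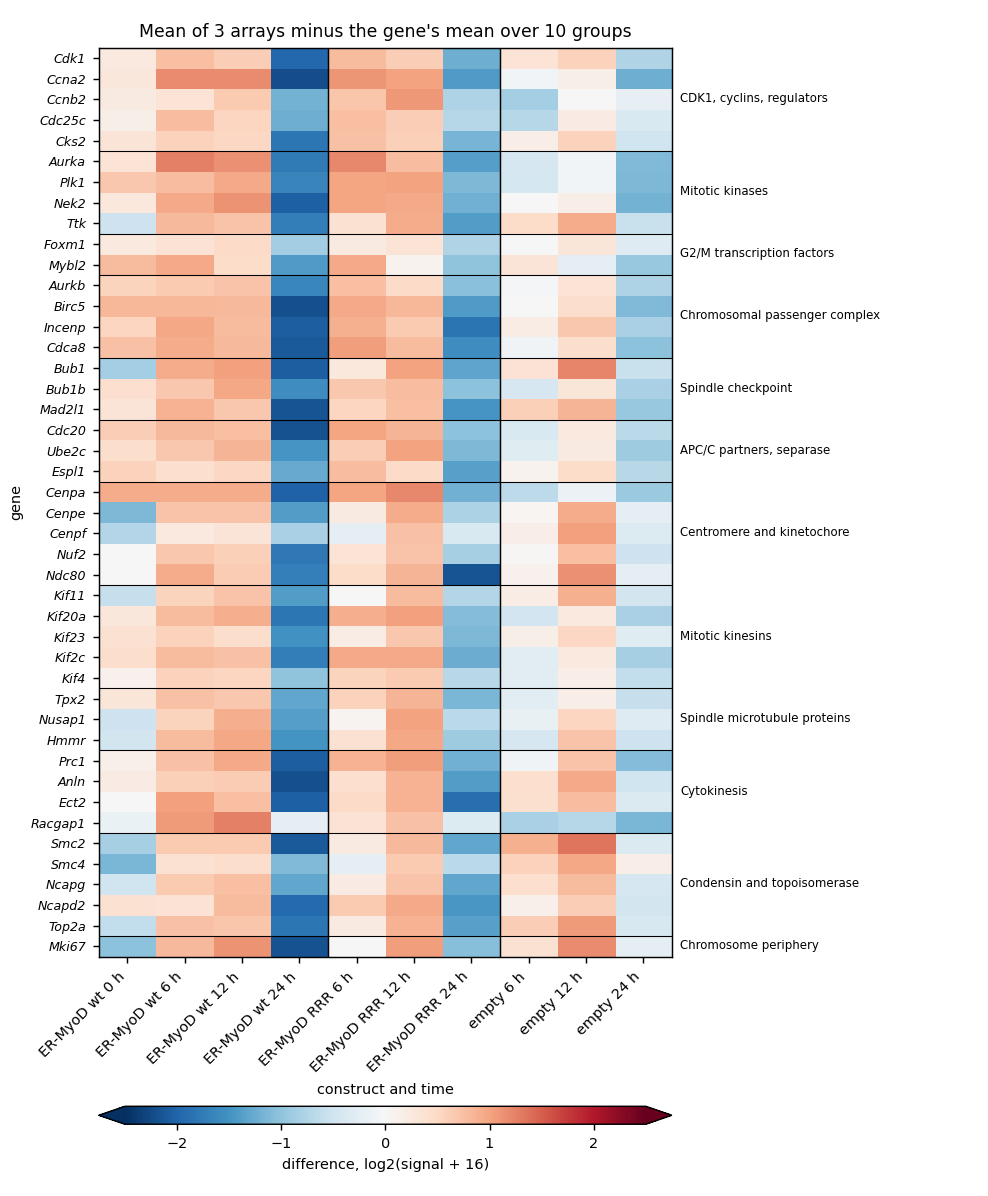
Heat map of the 44 members (rows, ordered by role) across the 10 groups (columns): colour is the group mean of log2 signal minus the gene's mean over the 10 groups, clipped at 2.5 either way. The ER-MyoD wt 24 h column is the lowest for 40 of 44 members and all 44 fell from 6 to 24 h in ER-MyoD wt.

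Against its own 0 h arrays, ER-MyoD wt was first higher and then much lower for these genes. At 6 h 23 members rose and 0 fell (0 lower at an unadjusted p under 0.05), with a median difference of 0.52. Over all genes 9.51% rose and 8.2% fell. At 12 h 23 rose, 0 fell (0 lower unadjusted) and the median was 0.49, against 10.5% and 9.86% over all genes. By 24 h 40 members had fallen below 0 h and 0 had risen (0 higher unadjusted), with a median of -1.90, where 16.2% of all genes fell and 14.5% rose. The 4 members that did not pass at 24 h were Cenpe (-0.28 ± 0.32), Cenpf (-0.08 ± 0.23), Smc4 (0.04 ± 0.21) and Racgap1 (-0.05 ± 0.23). By role, rises at 6 h passed for 4 of 5 condensin and topoisomerase genes, 4 of 5 centromere and kinetochore genes and 3 of 3 spindle microtubule genes. The rise passed for 0 of 4 passenger complex genes (0 higher at an unadjusted p under 0.05).

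Compared with empty retrovirus at the same time, the members were higher in ER-MyoD wt at 6 h and lower at 24 h. At 6 h 26 were higher and 0 lower (0 lower unadjusted), with a median of 0.71, against 6.51% higher and 6.21% lower over all genes. With median centring in place of quantile normalisation, all genes split 1374 higher and 526 lower, in place of 1184 and 1130, and 28 members were higher. At 12 h 12 were higher and 2 lower (Cenpf and Smc2), with a median of 0.21, and 7.16% of all genes were higher and 8.26% lower. Median centring split all genes 1382 higher and 828 lower, in place of 1302 and 1502, and then 18 members were higher with no lower call. Without replicate 1 of ER-MyoD wt at 12 h, 8 members were higher, and neither Cenpf nor Smc2 passed. At 24 h 38 of 44 were lower and 1, Racgap1, was higher, with a median of -1.03, where 14% of all genes were lower and 11.4% higher. At that time 8 of 8 muscle markers were higher and 7 of 10 fibroblast markers lower in ER-MyoD wt, and their part in the result was not tested.

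ER-MyoD RRR also had more members above than below empty retrovirus at 6 h, and more below it at 24 h. At 6 h 25 members were higher and 1 lower, Smc4, with a median of 0.66, against 7.18% higher and 6.63% lower over all genes, or, with median centring, 1447 higher and 708 lower, in place of 1307 and 1207. Smc4 did not pass with median centring (-0.51, adjusted p = 0.174, limma), in a fit to the groups compared, or without replicate 1 or 3 of RRR at 6 h. At 12 h 11 were higher and 0 lower (1 lower unadjusted), with a median of 0.21, against 5.11% and 4.97% over all genes. Median centring split these as 1044 higher and 348 lower, in place of 929 and 904, and gave 17 higher members. At 24 h 19 were lower and 1 higher, again Racgap1, with a median of -0.42, where 10.5% of all genes were lower and 8.56% higher. All genes then split, with median centring, 936 higher and 1757 lower, in place of 1557 and 1908, 19 members were lower, and Racgap1 did not pass. The ER-MyoD wt and RRR comparisons share the same empty retrovirus arrays.

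**Figure D2:**
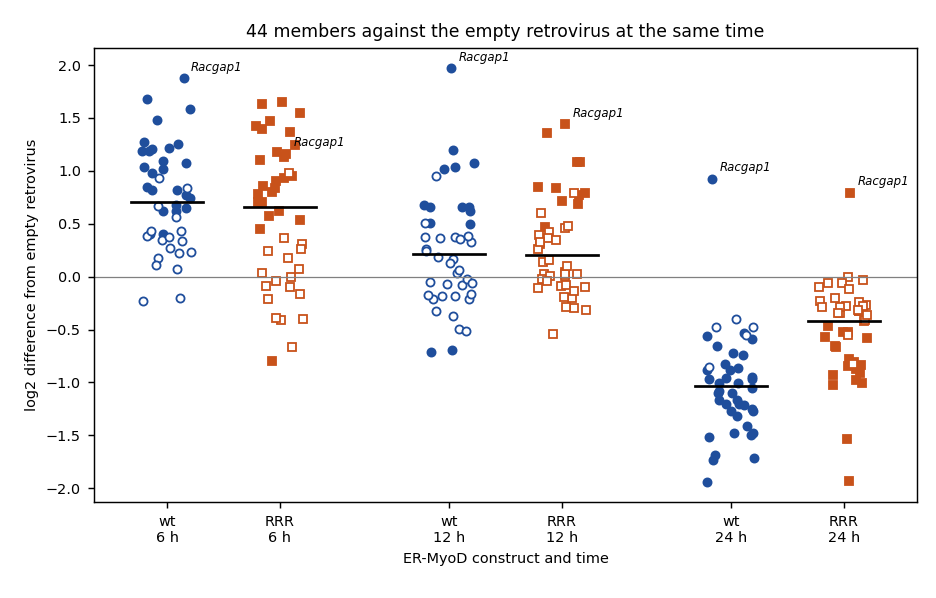
Log2 difference of each member from empty retrovirus (vertical axis) for ER-MyoD wt and ER-MyoD RRR at 6, 12 and 24 h: filled points passed at an adjusted p under 0.05, open points did not, and black lines are medians. The medians go from 0.71 (wt) and 0.66 (RRR) at 6 h to -1.03 and -0.42 at 24 h, and Racgap1 is the point above 0 at 24 h.

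At 24 h the group means ran in the order ER-MyoD wt, ER-MyoD RRR, empty retrovirus, from low to high, for 41 of the 44 members, with Espl1, Ndc80 and Racgap1 outside that order. This is an order of means, whether or not a difference passed. RRR was higher than wt past the test for 17 members and lower than empty retrovirus for 19. With median centring these counts were 2 and 19. At 6 h empty retrovirus lay below both fusions for 34 members, and above both for Smc2 and Smc4. Such orders were not counted over all genes, so they are not shown to be particular to the members. The next paragraphs give the members by role, with the 3 arrays of a group in the order of their replicate numbers. Signals are as deposited, and overlap between groups was judged on the normalised log2 values. Arrays that stood apart are described as such, and this adds no support to the test.

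**Figure D3:**
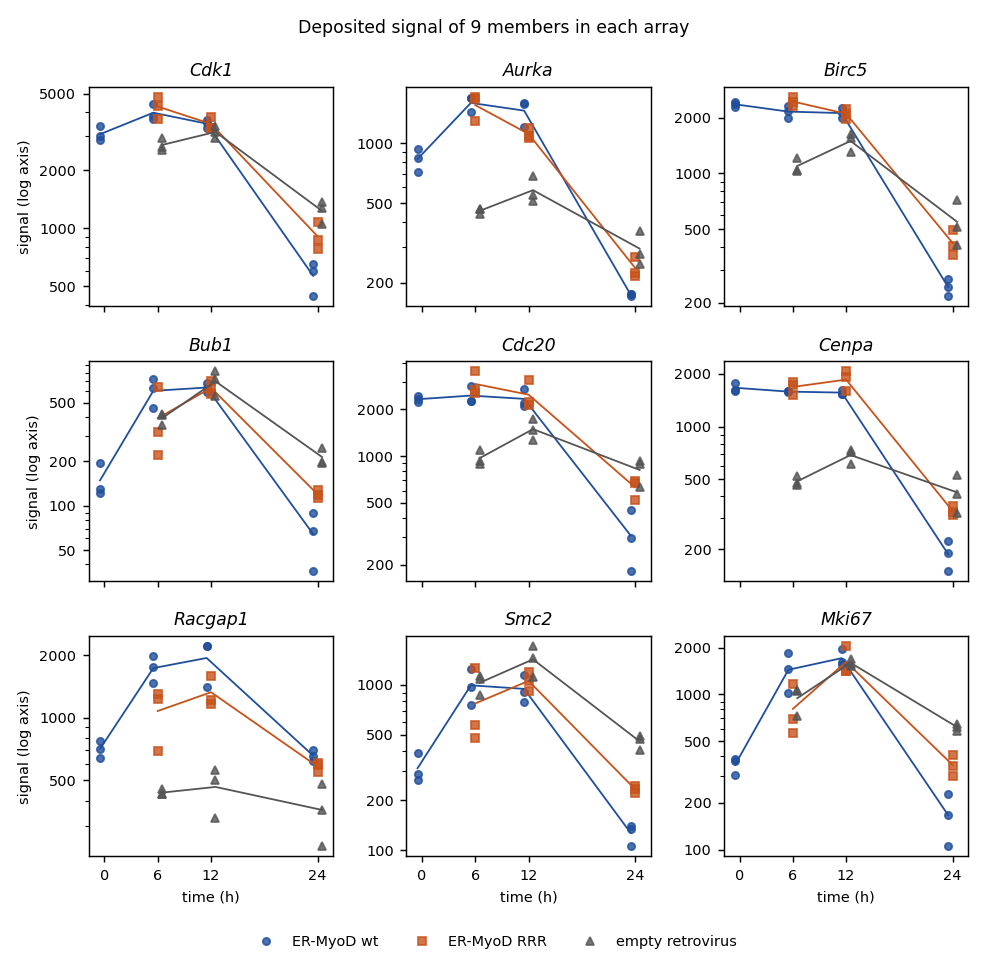
Deposited signal (log axis) of 9 members on all 30 arrays against hours in differentiation medium: each point is 1 array, shifted sideways slightly for legibility, and lines join group means. At 24 h the ER-MyoD wt points lie below those of empty retrovirus for all of these members but Racgap1, which lies above them at each time.

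CDK1 is the kinase that drives entry into mitosis. Cdk1 gave signals in ER-MyoD wt of 2860, 3375 and 2995 at 0 h, 3809, 4426 and 3699 at 6 h, 3537, 3627 and 3313 at 12 h and 442, 599.8 and 656 at 24 h. The Cdk1 signals of ER-MyoD RRR were 3699, 4825 and 4330 at 6 h, 3323, 3783 and 3330 at 12 h and 868, 778 and 1075 at 24 h. With empty retrovirus, Cdk1 gave 2542, 2631 and 2949 at 6 h, 2954, 3147 and 3385 at 12 h and 1046, 1272 and 1371 at 24 h. At 24 h the 3 wt arrays were lowest, the RRR arrays came next and the empty retrovirus arrays were highest, apart from each other once normalised. Cdk1 fell from 6 to 24 h in each construct, with log2 differences of -2.72 ± 0.13 in ER-MyoD wt, -2.02 ± 0.13 in RRR and -1.11 ± 0.13 with empty retrovirus. Cyclin B2 activates CDK1. Ccnb2 gave signals in ER-MyoD wt of 665, 619.5 and 615 at 0 h, 683, 722 and 679.5 at 6 h, 839, 836 and 881 at 12 h and 223, 221 and 225 at 24 h. The Ccnb2 signals of ER-MyoD RRR were 836, 966 and 930.1 at 6 h, 1164, 1131 and 1214 at 12 h and 309.7, 279 and 319 at 24 h. With empty retrovirus, Ccnb2 gave 289, 266 and 342 at 6 h, 534, 499 and 516 at 12 h and 392, 489 and 502 at 24 h. It was the 1 member that rose from 6 to 24 h with empty retrovirus (0.63 ± 0.11, adjusted p = 9.64e-05 by limma), while it fell in both fusions. Cyclin A2 acts with CDK2 and CDK1 in S and G2 phase. Ccna2 gave signals in ER-MyoD wt of 1498, 1721 and 1464 at 0 h, 3098, 2752 and 2444 at 6 h, 2906, 3011 and 2315 at 12 h and 221, 199 and 294 at 24 h. The Ccna2 signals of ER-MyoD RRR were 2835, 2361 and 3072 at 6 h, 2456, 2351 and 2244 at 12 h and 429.5, 427 and 403 at 24 h. With empty retrovirus, Ccna2 gave 1065, 1180 and 887 at 6 h, 1581, 932 and 1221 at 12 h and 519.9, 412 and 563 at 24 h. Its fall from 6 to 24 h in ER-MyoD wt (-3.40 ± 0.19) had the largest size of the 44 members. CKS2 is a small subunit that docks CDK1 to its substrates. Cks2 gave signals in ER-MyoD wt of 2104, 2039 and 2127 at 0 h, 2459, 2030 and 2376 at 6 h, 2215, 2048 and 2348 at 12 h and 379.8, 407 and 435 at 24 h. The Cks2 signals of ER-MyoD RRR were 2503, 2911 and 2737 at 6 h, 2095, 2630 and 2198 at 12 h and 594, 657 and 640.1 at 24 h. With empty retrovirus, Cks2 gave 1461, 1336 and 1963 at 6 h, 1765, 2194 and 2298 at 12 h and 788, 1111 and 1123 at 24 h. Wt, RRR and empty arrays were apart at 24 h, in that order. Cdc25c, the phosphatase that switches CDK1 on, had log2 differences of 1.48 at 6 h and -0.83 at 24 h between ER-MyoD wt and empty retrovirus. Its other probe set gave smaller differences of the same direction, 0.65 and -0.62. Of the 5 genes of this role, 5 were higher than empty retrovirus at 6 h in both fusions, although in wt Cdk1 did not pass when any 1 of the 3 wt arrays, or replicate 1 or 2 of empty retrovirus, was left out (adjusted p from 0.0591 to 0.145, limma). At 24 h 5 were lower in ER-MyoD wt and 3 in RRR. Over all genes, 6.51% (wt) and 7.18% (RRR) were higher at 6 h, and 14% and 10.5% lower at 24 h.

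Aurora A and PLK1 are kinases of centrosome maturation and spindle assembly. Aurka gave signals in ER-MyoD wt of 938, 719 and 838 at 0 h, 1672, 1672 and 1423 at 6 h, 1583, 1567 and 1209 at 12 h and 176, 174 and 170.3 at 24 h. The Aurka signals of ER-MyoD RRR were 1709, 1283 and 1654 at 6 h, 1186, 1086 and 1058 at 12 h and 269.9, 217 and 223 at 24 h. With empty retrovirus, Aurka gave 465, 441 and 466 at 6 h, 684, 511 and 546 at 12 h and 249, 276 and 362 at 24 h. Every ER-MyoD array at 6 h was above every empty retrovirus array, by 1.68 ± 0.16 for wt and 1.64 ± 0.16 for RRR. At 24 h the wt arrays lay below all others, -0.65 ± 0.16 from empty (adjusted p = 0.00218, limma), whereas the RRR arrays overlapped those of empty retrovirus (-0.27 ± 0.16, adjusted p = 0.268). Plk1 gave signals in ER-MyoD wt of 695, 814 and 709 at 0 h, 736, 860.1 and 788 at 6 h, 853, 908 and 843 at 12 h and 142, 126 and 126 at 24 h. The Plk1 signals of ER-MyoD RRR were 1021, 678 and 1155 at 6 h, 903, 864 and 995 at 12 h and 231, 167 and 204 at 24 h. With empty retrovirus, Plk1 gave 284, 374 and 339 at 6 h, 495, 349 and 398 at 12 h and 196, 200.3 and 224 at 24 h. Plk1 at 24 h showed the same order, with wt -0.53 ± 0.16 from empty and RRR -0.01 ± 0.16. Replicate 2 of RRR at 6 h was the lowest of its 3 for both genes. The other kinases were Ttk, which sets the spindle checkpoint going (1.32 from 0 to 6 h in wt), and Nek2, a centrosome kinase (0.68, not passing).

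FOXM1 and B-Myb (Mybl2) are the transcription factors of the G2/M programme. Foxm1 gave signals in ER-MyoD wt of 278, 301 and 342 at 0 h, 341, 331 and 376 at 6 h, 408, 394 and 331 at 12 h and 103, 121 and 201 at 24 h. The Foxm1 signals of ER-MyoD RRR were 263, 277 and 400.4 at 6 h, 412, 278 and 352 at 12 h and 172, 200.1 and 123 at 24 h. With empty retrovirus, Foxm1 gave 263, 212 and 369 at 6 h, 389, 245 and 380.3 at 12 h and 234, 188 and 252 at 24 h. Foxm1 arrays of the 3 constructs overlapped at 6 and 12 h, and it fell from 6 to 24 h in both fusions (-1.24 ± 0.23 in wt, -0.97 ± 0.23 in RRR). Mybl2 gave signals in ER-MyoD wt of 219, 192 and 218 at 0 h, 231, 285 and 225 at 6 h, 184, 165 and 162 at 12 h and 33.9, 18.6 and 69.4 at 24 h. The Mybl2 signals of ER-MyoD RRR were 269.8, 189.9 and 271 at 6 h, 128, 124 and 131 at 12 h and 55.9, 58.4 and 68.6 at 24 h. With empty retrovirus, Mybl2 gave 156, 182 and 164 at 6 h, 97.5, 116 and 123 at 12 h and 78.8, 47.2 and 57.3 at 24 h. Mybl2 fell from 6 to 24 h in each construct, with -2.36 ± 0.20 in wt, -1.95 ± 0.20 in RRR and -1.27 ± 0.20 with empty retrovirus. At 24 h neither factor passed against empty retrovirus, with Foxm1 at -0.55 ± 0.23 and Mybl2 at -0.48 ± 0.20 in wt.

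The chromosomal passenger complex, Aurora B with survivin, borealin and INCENP, corrects chromosome attachment and starts cytokinesis. Birc5 gave signals in ER-MyoD wt of 2435, 2275 and 2376 at 0 h, 2172, 1980 and 2319 at 6 h, 2117, 1994 and 2242 at 12 h and 244, 268 and 217 at 24 h. The Birc5 signals of ER-MyoD RRR were 2438, 2299 and 2600 at 6 h, 2102, 1976 and 2223 at 12 h and 405, 362 and 497 at 24 h. With empty retrovirus, Birc5 gave 1041, 1033 and 1218 at 6 h, 1307, 1635 and 1550 at 12 h and 411, 514 and 720.2 at 24 h. Birc5, survivin, fell below its 0 h level at 24 h in ER-MyoD wt (-3.03 ± 0.14), the largest such fall of the 44 members. Its wt, RRR and empty retrovirus groups had means of 243 ± 25.7, 421 ± 68.6 and 548 ± 158 (SD) at 24 h. Aurkb gave signals in ER-MyoD wt of 474, 464 and 511 at 0 h, 574, 604 and 408 at 6 h, 473, 627 and 518 at 12 h and 88.1, 73.3 and 123 at 24 h. The Aurkb signals of ER-MyoD RRR were 591, 538 and 557 at 6 h, 439, 500.3 and 429.6 at 12 h and 121, 162 and 194 at 24 h. With empty retrovirus, Aurkb gave 346, 296 and 332 at 6 h, 464, 345 and 409 at 12 h and 189, 185 and 217 at 24 h. The wt and RRR arrays of Aurkb at 24 h touched on the deposited scale, at 123 and 121, and did not overlap once normalised. Cdca8 gave signals in ER-MyoD wt of 1950, 1791 and 1870 at 0 h, 1787, 2077 and 2238 at 6 h, 1766, 1593 and 2244 at 12 h and 211, 229.5 and 229 at 24 h. The Cdca8 signals of ER-MyoD RRR were 2230, 2575 and 1955 at 6 h, 1622, 1925 and 1870 at 12 h and 377, 310.1 and 316 at 24 h. With empty retrovirus, Cdca8 gave 906, 969.8 and 819 at 6 h, 1094, 1551 and 1238 at 12 h and 410, 498 and 578 at 24 h. Borealin, Cdca8, showed no overlap of the fusions with empty retrovirus at 6 h or 24 h. Incenp gave signals in ER-MyoD wt of 1003, 904 and 1095 at 0 h, 1392, 1571 and 1096 at 6 h, 1149, 1014 and 1376 at 12 h and 94.0, 242 and 135 at 24 h. The Incenp signals of ER-MyoD RRR were 1169, 1520 and 1224 at 6 h, 1025, 1308 and 867 at 12 h and 190.4, 194 and 153 at 24 h. With empty retrovirus, Incenp gave 629, 745 and 792 at 6 h, 780.5, 1174 and 1039 at 12 h and 335, 384 and 389.8 at 24 h. Incenp at 24 h was lower than empty retrovirus in both fusions (-1.25 ± 0.21 in wt, -1.02 ± 0.21 in RRR), and the mean of all its probe sets gave a difference of -0.12 for RRR, which did not pass. All 4 members of the complex were higher than empty retrovirus at 6 h in wt and in RRR, and all 4 were lower in wt at 24 h. Over all genes, 6.51% (wt) and 7.18% (RRR) were higher at 6 h, and 14% were lower in wt at 24 h.

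BUB1 and MAD2 hold anaphase back until chromosomes are attached. Bub1 gave signals in ER-MyoD wt of 196, 122 and 129 at 0 h, 722, 459 and 630.4 at 6 h, 633, 682 and 592 at 12 h and 68.0, 88.8 and 35.9 at 24 h. The Bub1 signals of ER-MyoD RRR were 315, 642 and 222 at 6 h, 619.9, 573 and 704 at 12 h and 129, 112 and 118 at 24 h. With empty retrovirus, Bub1 gave 418, 412 and 353 at 6 h, 729, 818 and 555 at 12 h and 195, 199 and 248 at 24 h. Bub1 was dim at 0 h in ER-MyoD wt and rose by 1.77 ± 0.28 at 6 h, and in RRR at 6 h its arrays spread from 222 to 642, with the highest on replicate 2. Mad2l1 gave signals in ER-MyoD wt of 874, 981 and 739 at 0 h, 1299, 1038 and 1493 at 6 h, 1139, 1001 and 1108 at 12 h and 123, 168 and 124 at 24 h. The Mad2l1 signals of ER-MyoD RRR were 1018, 1052 and 971 at 6 h, 1091, 1275 and 1068 at 12 h and 198, 269 and 226 at 24 h. With empty retrovirus, Mad2l1 gave 942, 878 and 998 at 6 h, 1022, 1332 and 1038 at 12 h and 323, 305 and 394 at 24 h. Mad2l1 fell in all 3 constructs from 6 to 24 h, including -1.54 ± 0.15 with empty retrovirus, the largest fall in the control cells. Bub1b, which encodes BUBR1 of the same checkpoint, was higher than empty retrovirus at 6 h by 1.09 ± 0.17 in wt and 1.10 ± 0.17 in RRR.

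CDC20 and the E2 enzyme UBE2C work with the anaphase-promoting complex, which destroys cyclin B and securin. Cdc20 gave signals in ER-MyoD wt of 2331, 2427 and 2226 at 0 h, 2262, 2837 and 2276 at 6 h, 2200, 2108 and 2714 at 12 h and 296, 448 and 182 at 24 h. The Cdc20 signals of ER-MyoD RRR were 2681, 3516 and 2561 at 6 h, 2149, 3094 and 2231 at 12 h and 676, 519.6 and 694 at 24 h. With empty retrovirus, Cdc20 gave 926, 897 and 1094 at 6 h, 1279, 1727 and 1478 at 12 h and 631, 889.7 and 927 at 24 h. Its wt arrays at 24 h lay below all RRR and empty retrovirus arrays, which overlapped each other. Ube2c gave signals in ER-MyoD wt of 1443, 1450 and 1604 at 0 h, 2073, 1664 and 1482 at 6 h, 1951, 1968 and 1762 at 12 h and 374, 309.8 and 372 at 24 h. The Ube2c signals of ER-MyoD RRR were 2001, 933 and 2421 at 6 h, 2054, 2106 and 2089 at 12 h and 433, 426 and 489 at 24 h. With empty retrovirus, Ube2c gave 754, 709 and 926 at 6 h, 1208, 979 and 1195 at 12 h and 488, 497 and 643 at 24 h. Replicate 2 of RRR at 6 h was the lowest of its 3 for Ube2c, at 933, and the normalised RRR and empty retrovirus arrays overlapped. Separase, Espl1, which cuts cohesin, was lower than empty retrovirus at 24 h in wt (-0.56) and in RRR (-0.66).

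CENP-A is the histone H3 variant that marks centromeres, and NDC80 and NUF2 are subunits of the complex that grips microtubules. Cenpa gave signals in ER-MyoD wt of 1591, 1778 and 1628 at 0 h, 1598, 1587 and 1566 at 6 h, 1526, 1623 and 1541 at 12 h and 189, 223 and 149.6 at 24 h. The Cenpa signals of ER-MyoD RRR were 1738, 1506 and 1808 at 6 h, 1912, 1587 and 2064 at 12 h and 313, 352 and 324 at 24 h. With empty retrovirus, Cenpa gave 476, 466 and 521 at 6 h, 611, 734 and 721 at 12 h and 323, 414 and 528 at 24 h. The Cenpa arrays of both fusions were above every empty retrovirus array at 6 h and 12 h. Cenpa was then lower than empty retrovirus at 24 h in wt (-1.10 ± 0.15, adjusted p = 1.28e-06, limma) and not past the test in RRR (-0.28 ± 0.15, adjusted p = 0.217). Ndc80 gave signals in ER-MyoD wt of 97.2, 107 and 67.5 at 0 h, 251, 166 and 195 at 6 h, 146, 177 and 165 at 12 h and 8.94, 20.6 and 35.9 at 24 h. The Ndc80 signals of ER-MyoD RRR were 97.1, 205 and 113 at 6 h, 132, 249.6 and 214 at 12 h and 9.31, 9.75 and 16 at 24 h. With empty retrovirus, Ndc80 gave 192, 76.5 and 102 at 6 h, 246, 284 and 212 at 12 h and 100.5, 83 and 88.5 at 24 h. Ndc80 was dim at 24 h in both fusions, where signals this low leave the size of a difference uncertain, and all 3 empty retrovirus arrays were brighter. Nuf2 gave signals in ER-MyoD wt of 539, 563 and 566 at 0 h, 846, 932 and 1007 at 6 h, 782, 851 and 929.7 at 12 h and 165, 103 and 185 at 24 h. The Nuf2 signals of ER-MyoD RRR were 723, 793 and 662 at 6 h, 856, 999 and 960.5 at 12 h and 262, 276 and 387 at 24 h. With empty retrovirus, Nuf2 gave 499.6, 579 and 585 at 6 h, 945, 903 and 830 at 12 h and 352, 361 and 465 at 24 h. Nuf2 at 24 h was lowest in wt, and RRR arrays overlapped empty retrovirus. CENP-E is a kinesin and CENP-F a large protein of the kinetochore. Cenpe gave signals in ER-MyoD wt of 136, 35.6 and 99.3 at 0 h, 518, 281 and 316 at 6 h, 301, 435 and 337 at 12 h and 107, 63.4 and 56.7 at 24 h. The Cenpe signals of ER-MyoD RRR were 196, 355 and 194 at 6 h, 386, 360.5 and 536 at 12 h and 185, 92.2 and 117 at 24 h. With empty retrovirus, Cenpe gave 243, 234 and 211 at 6 h, 479, 456 and 321 at 12 h and 187, 186 and 205 at 24 h. Cenpe rose by 1.83 ± 0.32 from 0 to 6 h in wt and its 24 h arrays lay within the range of its 0 h arrays. Cenpf gave signals in ER-MyoD wt of 123, 147 and 196 at 0 h, 464, 289 and 304 at 6 h, 311, 436 and 339 at 12 h and 169, 161 and 150 at 24 h. The Cenpf signals of ER-MyoD RRR were 186, 378 and 169 at 6 h, 454, 482 and 550 at 12 h and 187, 255 and 224 at 24 h. With empty retrovirus, Cenpf gave 349, 377 and 282 at 6 h, 633, 606 and 525 at 12 h and 292, 168 and 270.3 at 24 h. Cenpf was -0.72 ± 0.23 in ER-MyoD wt against empty retrovirus at 12 h (adjusted p = 0.0297, limma), with no overlap of the arrays.

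KIF11 pushes spindle poles apart and KIF20A acts in the late spindle and cytokinesis. Kif11 gave signals in ER-MyoD wt of 126, 66.6 and 104 at 0 h, 272, 173 and 328 at 6 h, 286, 361 and 207 at 12 h and 44.4, 60.7 and 58.6 at 24 h. The Kif11 signals of ER-MyoD RRR were 154, 165 and 146 at 6 h, 371, 249 and 291 at 12 h and 134, 84.2 and 96.3 at 24 h. With empty retrovirus, Kif11 gave 245, 183 and 178 at 6 h, 419, 292 and 265 at 12 h and 121, 105 and 167 at 24 h. Kif11 in ER-MyoD wt rose by 1.14 ± 0.25 at 6 h over 0 h and ended -0.82 ± 0.25 from 0 h at 24 h. Kif20a gave signals in ER-MyoD wt of 461, 359 and 367 at 0 h, 604, 623 and 536 at 6 h, 747, 676 and 486 at 12 h and 84, 96.4 and 75.4 at 24 h. The Kif20a signals of ER-MyoD RRR were 710.2, 556 and 671 at 6 h, 789, 704 and 579 at 12 h and 137, 168 and 157 at 24 h. With empty retrovirus, Kif20a gave 246, 239.8 and 231 at 6 h, 428, 366 and 369.7 at 12 h and 176, 171 and 243 at 24 h. Kif20a differed from empty retrovirus in both fusions at 6 h (1.27 ± 0.17 for wt, 1.40 ± 0.17 for RRR). Kif2c, which depolymerises microtubules at the centromere, was 1.08 higher in wt at 6 h, and Kif4, a chromosome-bound kinesin, was 0.84. Kif23, the kinesin of the central spindle, spread from 250 to 780 on its 12 h empty retrovirus arrays and did not pass at 6 h (0.43 ± 0.35).

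TPX2 activates Aurora A and nucleates spindle microtubules, and NUSAP1 bundles them. Tpx2 gave signals in ER-MyoD wt of 507, 403 and 433 at 0 h, 715, 591 and 569 at 6 h, 555, 628 and 566 at 12 h and 134, 137 and 142 at 24 h. The Tpx2 signals of ER-MyoD RRR were 559, 608 and 482 at 6 h, 663, 689 and 644 at 12 h and 140.2, 205 and 145 at 24 h. With empty retrovirus, Tpx2 gave 289.8, 284 and 330.1 at 6 h, 332, 503 and 399.7 at 12 h and 244, 262 and 239 at 24 h. Tpx2 at 24 h was lower than empty retrovirus in both fusions (-0.73 ± 0.14 in wt, -0.58 ± 0.14 in RRR), and the wt and RRR arrays there overlapped. Nusap1 gave signals in ER-MyoD wt of 245, 244 and 265 at 0 h, 669, 499.5 and 614 at 6 h, 685, 805 and 764 at 12 h and 164, 139.5 and 123 at 24 h. The Nusap1 signals of ER-MyoD RRR were 377, 485 and 362 at 6 h, 785, 746 and 897 at 12 h and 242, 209.9 and 275 at 24 h. With empty retrovirus, Nusap1 gave 389, 333 and 318 at 6 h, 562, 565 and 533 at 12 h and 314, 309 and 318 at 24 h. All 12 h arrays of both fusions were above the empty retrovirus arrays for Nusap1, and at 24 h all wt arrays were below them (-1.05 ± 0.14). Hmmr, a spindle pole protein, was higher than empty retrovirus at 6 h in wt (1.21) and in RRR (0.80).

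PRC1 bundles the central spindle, anillin (Anln) scaffolds the contractile ring, and ECT2 with RACGAP1 activates RhoA at the division plane. Prc1 gave signals in ER-MyoD wt of 548, 569.5 and 703 at 0 h, 1098, 769 and 986 at 6 h, 1016, 1178 and 1073 at 12 h and 131, 156 and 91.5 at 24 h. The Prc1 signals of ER-MyoD RRR were 1002, 1094 and 1072 at 6 h, 1088, 1153 and 1226 at 12 h and 223, 370.4 and 147 at 24 h. With empty retrovirus, Prc1 gave 492, 569 and 451 at 6 h, 1037, 692 and 850.5 at 12 h and 250.4, 204 and 331 at 24 h. The RRR arrays of Prc1 at 24 h spread from 147 to 370 and overlapped those of wt. Anln gave signals in ER-MyoD wt of 1174, 1145 and 989 at 0 h, 1718, 1218 and 1377 at 6 h, 1537, 1448 and 1306 at 12 h and 186, 203 and 160.5 at 24 h. The Anln signals of ER-MyoD RRR were 1304, 1586 and 978 at 6 h, 1696, 1535 and 1747 at 12 h and 311, 350.3 and 310 at 24 h. With empty retrovirus, Anln gave 1181, 1186 and 967 at 6 h, 1619, 1764 and 1442 at 12 h and 592, 548 and 702 at 24 h. Anln arrays of the 3 constructs stood apart at 24 h, wt lowest and empty retrovirus highest. Ect2 gave signals in ER-MyoD wt of 392, 230.2 and 264 at 0 h, 822, 547 and 591 at 6 h, 501, 494 and 559 at 12 h and 81.3, 47.0 and 62.6 at 24 h. The Ect2 signals of ER-MyoD RRR were 466, 490 and 322 at 6 h, 668, 592 and 471 at 12 h and 76.3, 94.8 and 66.5 at 24 h. With empty retrovirus, Ect2 gave 507, 301 and 435 at 6 h, 427, 636 and 517 at 12 h and 261, 251 and 223 at 24 h. Ect2 fell from 6 to 24 h in ER-MyoD wt (-3.06 ± 0.21), and both fusions were below empty retrovirus at 24 h. Racgap1 gave signals in ER-MyoD wt of 641, 776 and 711 at 0 h, 1753, 1991 and 1470 at 6 h, 2214, 2214 and 1406 at 12 h and 618, 701 and 655 at 24 h. The Racgap1 signals of ER-MyoD RRR were 1307, 695 and 1238 at 6 h, 1601, 1222 and 1167 at 12 h and 608, 551 and 590.3 at 24 h. With empty retrovirus, Racgap1 gave 454, 428 and 428 at 6 h, 504, 328 and 564 at 12 h and 478, 241 and 361 at 24 h. Racgap1 was the exception among the members: both fusions were above every empty retrovirus array at each time, by 1.88 ± 0.23 at 6 h, 1.97 ± 0.23 at 12 h and 0.93 ± 0.23 at 24 h for wt. For RRR the differences were 1.16 ± 0.23, 1.44 ± 0.23 and 0.79 ± 0.23. The RRR call at 24 h (adjusted p = 0.0151, limma) did not hold with median centring (0.64, adjusted p = 0.063) or without replicate 2 of empty retrovirus at 24 h (0.54, adjusted p = 0.146). Racgap1 did fall from 6 to 24 h within ER-MyoD wt (-1.29 ± 0.23) and RRR (-0.71 ± 0.23).

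Condensin, of which SMC2, SMC4, NCAPG and NCAPD2 are subunits, compacts chromosomes, and topoisomerase II alpha (Top2a) untangles them. Top2a gave signals in ER-MyoD wt of 700.2, 758 and 762 at 0 h, 2186, 1560 and 2021 at 6 h, 1653, 1967 and 1965 at 12 h and 273, 341 and 305 at 24 h. The Top2a signals of ER-MyoD RRR were 1146, 1827 and 1284 at 6 h, 2009, 2115 and 2050 at 12 h and 437, 412 and 390.5 at 24 h. With empty retrovirus, Top2a gave 1586, 1778 and 1460 at 6 h, 1858, 2481 and 2199 at 12 h and 761, 738 and 938 at 24 h. Top2a in ER-MyoD wt rose by 1.34 ± 0.14 over 0 h at 6 h and did not differ past the test from empty retrovirus then (0.11 ± 0.14, adjusted p = 0.742, limma). Ncapg gave signals in ER-MyoD wt of 119, 102 and 94.8 at 0 h, 229, 281 and 312 at 6 h, 300, 264 and 320.3 at 12 h and 48.4, 74.3 and 61.8 at 24 h. The Ncapg signals of ER-MyoD RRR were 209, 329.5 and 87.6 at 6 h, 292, 359.6 and 236 at 12 h and 64.9, 55.8 and 85.4 at 24 h. With empty retrovirus, Ncapg gave 229, 254 and 244 at 6 h, 309, 399 and 246 at 12 h and 122, 137 and 143 at 24 h. Ncapg at 24 h was below empty retrovirus in both fusions, and RRR minus wt was 0.01 ± 0.27. Smc2 gave signals in ER-MyoD wt of 387, 289 and 265 at 0 h, 1255, 758 and 971 at 6 h, 902, 1154 and 785 at 12 h and 140.5, 106 and 135 at 24 h. The Smc2 signals of ER-MyoD RRR were 575, 1267 and 477 at 6 h, 1060, 923 and 1193 at 12 h and 244, 236 and 222 at 24 h. With empty retrovirus, Smc2 gave 1094, 1127 and 872 at 6 h, 1458, 1714 and 1115 at 12 h and 473, 403 and 492 at 24 h. Smc2 at 12 h was lower in wt than with empty retrovirus by the probe set used (-0.69 ± 0.23), and the mean of its probe sets gave 0.10 (adjusted p = 0.831). At 24 h all 5 genes of this role were lower than empty retrovirus in wt and in RRR, against 14% and 10.5% over all genes.

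Ki-67 (Mki67) coats mitotic chromosomes and is the common marker of cycling cells. Mki67 gave signals in ER-MyoD wt of 384, 371 and 303 at 0 h, 1852, 1024 and 1450 at 6 h, 1556, 1960 and 1621 at 12 h and 167, 228 and 105 at 24 h. The Mki67 signals of ER-MyoD RRR were 691, 1162 and 568 at 6 h, 1413, 1407 and 2042 at 12 h and 409, 346 and 298 at 24 h. With empty retrovirus, Mki67 gave 1064, 1047 and 726 at 6 h, 1691, 1582 and 1523 at 12 h and 582, 619 and 648 at 24 h. Mki67 rose most of all members from 0 h, by 1.84 ± 0.25 at 6 h and 2.14 ± 0.25 at 12 h. By 24 h the wt arrays were under all RRR arrays, which were under all empty retrovirus arrays (-1.94 ± 0.25 for wt and -0.81 ± 0.25 for RRR against empty).

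From 6 to 24 h within a construct, nearly all members fell in both fusions, and fewer, with a smaller median, in control cells. In ER-MyoD wt 44 of 44 fell and 0 rose (0 higher unadjusted), with a median of -2.44, where 12.4% of all genes fell and 11.4% rose. Median centring split all genes 1424 higher and 2388 lower, in place of 2082 and 2256. In ER-MyoD RRR 42 fell and 0 rose (0 higher unadjusted), with a median of -1.79, against 12.9% and 11% over all genes, or, with median centring, 1229 higher and 2911 lower, in place of 2006 and 2344. Cenpf (-0.15 ± 0.23) and Smc4 (-0.46 ± 0.21) did not pass in RRR. With empty retrovirus 24 fell and 1, Ccnb2, rose, with a median of -0.63, against 7.67% and 8.09% over all genes. The difference between constructs in this change was tested as an interaction. The wt change was more negative than that of empty retrovirus for 41 members and less negative for 0 (0 unadjusted), with a median of -1.79, where 8.24% of all genes were lower and 6.45% higher and median centring gave 604 higher and 1406 lower, in place of 1174 and 1499. The largest were Cenpa (-2.68 ± 0.21), Cdc20 (-2.68 ± 0.28) and Mki67 (-2.36 ± 0.36). The RRR change was more negative than that of empty retrovirus for 28 and less negative for 0 (0 unadjusted), with a median of -1.06, against 5.93% lower and 4.55% higher over all genes, or, with median centring, 379 higher and 1200 lower, in place of 828 and 1078. Among them were Ccnb2 (-2.11 ± 0.16), Cenpa (-1.93 ± 0.21) and Ndc80, whose RRR signals at 24 h lay at or below the pseudocount and leave its size uncertain. Median centring moved the median of all genes by over 0.1 in 4 of the 18 comparisons, and the deposited scale did so in 2, while the members' median kept its sign under both.

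**Figure D4:**
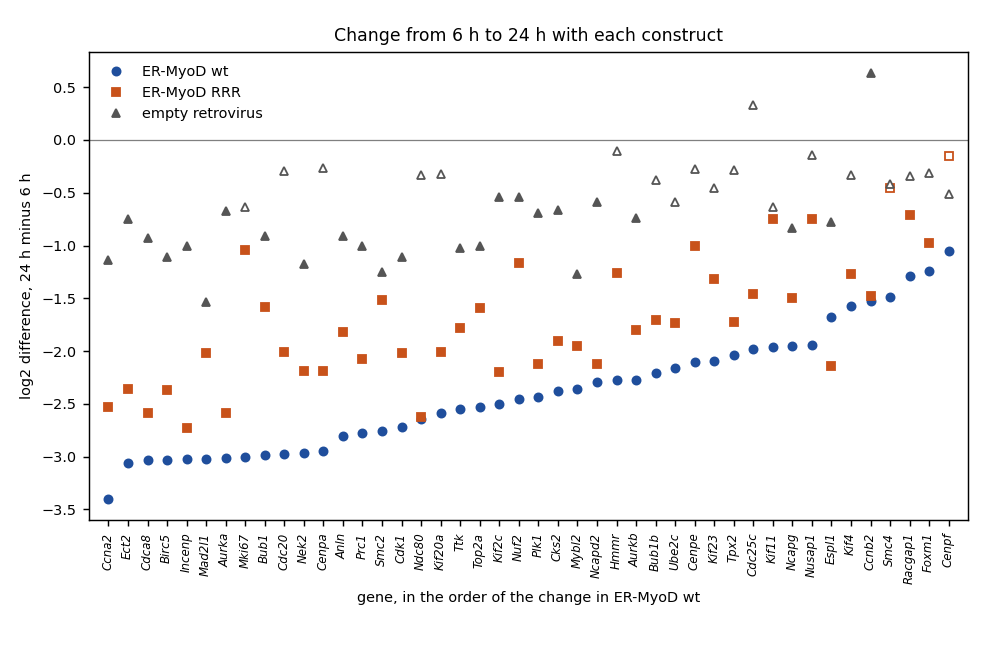
Log2 change from 6 to 24 h of each member (genes ordered by their ER-MyoD wt change) in ER-MyoD wt, ER-MyoD RRR and empty retrovirus: filled points passed at an adjusted p under 0.05, open points did not. The medians are -2.44, -1.79 and -0.63, and Ccnb2 is the filled empty retrovirus point above 0.

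The non-acetylatable fusion was compared directly with wild type, to ask whether these lysines matter for the response. At 6 and 12 h few members differed. At 6 h 2 members were lower in RRR, Nusap1 (-0.49 ± 0.14, adjusted p = 0.0457, limma) and Top2a (-0.50 ± 0.14, adjusted p = 0.036, arrays overlapping), and 0 were higher (2 higher unadjusted), with a median of -0.07. All genes gave 2.03% lower and 1.63% higher, and median centring split them 55 higher and 199 lower, in place of 296 and 370, and left no member called. Without replicate 2 of RRR, the array with the high 3′ to 5′ ratios, 7 members were lower, and the count was 0 without replicate 1 or 3 of wt or of RRR. At 12 h 1 member, Ccnb2, was higher (0.43 ± 0.11, adjusted p = 0.0396) and 0 were lower (2 lower unadjusted), with a median of 0.09, against 0.874% and 0.879% over all genes, and leaving out any 1 array of either construct at 12 h ended that call.

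At 24 h every role but the mitotic kinases and the transcription factors had a member that was higher in RRR. In all, 17 members were higher than in wt and 0 lower (29 higher and 0 lower at an unadjusted p under 0.05), with a median of 0.52, where 3.34% of all genes were higher and 2.04% lower. Cdc20 (1.15 ± 0.20, adjusted p = 0.000488), Mki67 (1.13 ± 0.25, adjusted p = 0.00596) and Nuf2 (0.96 ± 0.15, adjusted p = 0.000184) led by size in the limma model. The others that passed were Cdk1, Ccna2, Ccnb2, Cks2, Aurkb, Birc5, Cdca8, Mad2l1, Cenpa, Kif20a, Nusap1, Prc1, Anln and Smc2. Of the 17, the arrays of RRR and wt overlapped for Prc1 alone. That separation is no support beyond the test, since the same arrays gave the calls. Neither transcription factor passed, with Foxm1 at 0.13 ± 0.23 and Mybl2 at 0.41 ± 0.20, and the kinase Aurka was at 0.38 ± 0.16. With median centring, all genes split 176 higher and 298 lower, in place of 607 and 372, the members' median was 0.42 and 2 members passed, Ccna2 and Nuf2. A fit to these 2 groups alone called 4, Anln, Birc5, Ccna2 and Cks2, and 11 passed without replicate 1 of wt at 24 h. With the mean of all probe sets of a gene 12 passed. By that mean Cdc20 was at 0.52 (adjusted p = 0.215, limma), Prc1 at 0.23 (adjusted p = 0.679) and Smc2 at 0.26 (adjusted p = 0.606). Nusap1 (0.37, adjusted p = 0.1865) and Aurkb (0.45, adjusted p = 0.082) did not pass either. Smc2 also did not pass when any 1 array of either fusion at 24 h was left out (adjusted p from 0.0644 to 0.118). Ccnb2 did not pass without replicate 1, 2 or 3 of wt or replicate 1 or 3 of RRR at 24 h. In the same comparison 7 of 10 fibroblast markers were higher in RRR and the muscle marker sum was lower, as given above, and their part in the result was not tested.

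**Figure D5:**
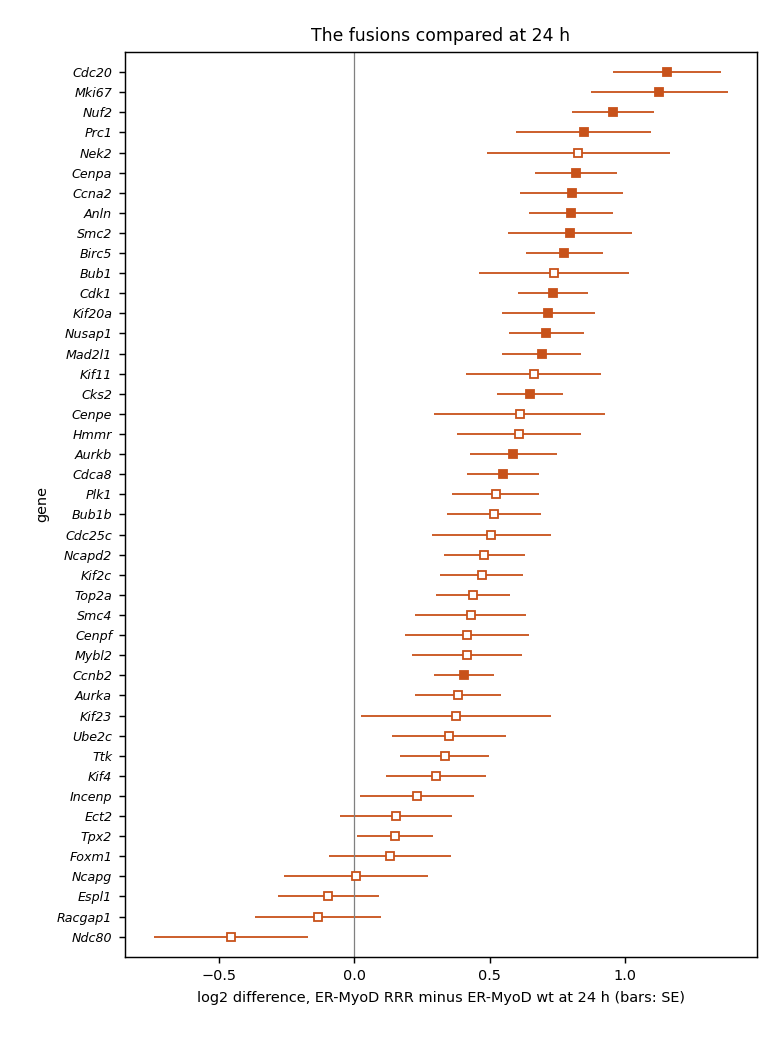
ER-MyoD RRR minus ER-MyoD wt at 24 h for the 44 members (log2 difference, bars are the standard error of the model, 3 arrays a group): filled points passed at an adjusted p under 0.05. Of the 44 means, 41 lie above 0, and 17 are filled.

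The change from 6 to 24 h itself differed between the fusions for 8 members, all less negative in RRR, and 0 were more negative (25 and 0 unadjusted), with a median of 0.68, against 1.33% higher and 0.704% lower over all genes. Median centring split all genes 25 higher and 23 lower, in place of 242 and 128, and called 3 members, Mki67, Nuf2 and Nusap1, as did the fit to the groups compared. Mki67 had the largest difference (1.96 ± 0.36, adjusted p = 0.00296, limma), followed by Nuf2 (1.29 ± 0.22) and Smc2 (1.24 ± 0.32). With the mean of all probe sets of a gene, Smc2 was at 0.54, Nusap1 at 0.44 and Top2a at 0.29, and none of these 3 passed. Cdk1, another of the 8, did not pass by that mean or on the deposited scale. It also did not pass when any 1 ER-MyoD wt array at 6 h was left out. Smc2 did not pass when any 1 array of either fusion at 24 h was left out. At 6 h RRR minus wt for Mki67 was -0.83 ± 0.25 and did not pass, and at 24 h it was 1.13 ± 0.25. The count was 14 without replicate 2 of RRR at 6 h and 5 without replicate 1 of wt or replicate 3 of RRR at 6 h.

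Other mitosis genes outside the 44, a list of 60 of which 58 were measured, were counted by the same test. Against empty retrovirus, ER-MyoD wt had 20 of them higher and 1 lower at 6 h, with a median of 0.42, where 6.51% of all genes were higher and 6.21% lower. At 24 h 1 was higher and 39 were lower, with a median of -0.83, against 11.4% and 14% over all genes. At 6 h these were led by Tacc3, a spindle protein (1.07 ± 0.15), Pttg1, securin (1.03 ± 0.15), Cdca3 (1.14 ± 0.17) and Pimreg (1.33 ± 0.22). At 24 h the smallest p-values were those of Cks1b (-1.22 ± 0.11), the centriole kinase Plk4 (-1.51 ± 0.16), the condensin subunit Ncaph (-1.26 ± 0.14) and Pbk (-1.15 ± 0.14). In RRR minus wt at 24 h 11 of the 58 were higher (3.34% of all genes), with a median of 0.41, among them Cks1b (0.79 ± 0.11), Sgo2a, which protects centromeric cohesin (1.09 ± 0.20), Cdca3 (0.87 ± 0.17) and the kinetochore gene Spc24 (0.61 ± 0.14).

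Other parts of the same machines, and regulators of these genes, were counted beside the members; some of them, such as Esco2 and Rbl1, are themselves known to vary with the cell cycle. A list of 13 genes held core subunits of the anaphase-promoting complex and Fzr1, which encodes a coactivator, as Cdc20 does, and not a core subunit. Of these 13, 1 rose and 1 fell from 6 to 24 h in ER-MyoD wt, with a median of 0.09. Over all genes 11.4% rose and 12.4% fell. The differences of the partners Cdc20 and Ube2c were -2.98 and -2.16. The subunit that rose was Anapc7 (1.07 ± 0.12). Cohesin, which holds sister chromatids together, had 9 of 11 genes higher at 6 h than at 0 h in wt (over all genes 9.51% were higher), with Wapl, its release factor, at 2.21 ± 0.20, Smc1a at 1.03 ± 0.14, Smc3 at 1.54 ± 0.23 and Pds5b at 0.99 ± 0.17. At 24 h 5 cohesin genes, Smc3, Stag2, Nipbl, Wapl and Pds5a, were higher than at 0 h and 2, Rad21 and Esco2, lower, against 14.5% and 16.2% over all genes. Esco2 was dim, with a mean signal in wt of 2.04 at 24 h and 25.4 at 0 h. The size of its difference is therefore uncertain. Against empty retrovirus, Wapl was the 1 cohesin gene that was higher in wt at 6 h (1.14 ± 0.20), and Stag2 (-0.81 ± 0.21) and Pds5a (-1.10 ± 0.20) were lower. Over all genes 6.51% were higher and 6.21% lower, so 1 of 11 higher is near the share of all genes. At 24 h Wapl was again higher than with empty retrovirus (1.32 ± 0.20), and 6 were lower, Smc1a, Rad21, Stag2, Pds5a, Pds5b and Esco2, against 11.4% higher and 14% lower over all genes. The size of the Esco2 difference is again uncertain, since its wt signal at 24 h lay below the pseudocount. Of 14 genes of DREAM, MuvB and NF-Y, 4 fell from 6 to 24 h in wt, where 12.4% of all genes fell: Tfdp1 (-1.31 ± 0.10), Rbl1, which encodes p107 (-2.08 ± 0.19), Lin54 (-2.12 ± 0.21) and Lin9 (-0.96 ± 0.29). With empty retrovirus 4 fell (7.67% of all genes), with a median over the list of -0.33 against -0.14 in wt.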

How the data were processed

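The authors deposited linear intensities, 1 for each probe set of 30 arrays, from 0.0474 to 20986. The software behind these intensities is not given in the sources used here. The trimmed mean of every array was 150, so intensities had been scaled between arrays, and array medians ranged from 38.0 to 64.1. The 64 control probe sets among 45101 were not used. GEO's annotation of the platform named 1 gene for 34945 of the rest, several for 932 and none here for 9160. Samples were grouped by construct and time from their titles.

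Linear values were quantile-normalised over 45037 probe sets and taken as log2(signal + 16). The model had 1 mean per group, an intensity-dependent prior for the variance (trend) and 20 residual degrees of freedom (R 4.3.3 with the packages limma 3.58.1, jsonlite 2.0.0 and, to read files, version 1.17.8 of data.table). Tests were two-sided, with 18 comparisons, each adjusted over its 18193 genes by Benjamini-Hochberg and read at 0.05. No filter on low values was used, and each of the 44 members reached a mean signal of 100 in at least 1 group. Tested on simulated data for ER-MyoD RRR minus wt at 24 h over 18193 genes, the model recovered 87 of 100 changes of log2 1 and 99 of 100 of log2 2, with 6 false calls. The changes were planted in brighter genes, with independent noise and after normalisation. These rates therefore do not cover smaller changes, dim genes or the choice of scaling. The number of arrays limits the precision.

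The members and lists were chosen with earlier results of these data known. Values on every array are given for 22 members fixed by role and for the 3 largest rises and falls of each comparison among those past the test without overlap, and from other lists the 4 smallest p-values are named. Plots used Python 3.11.15, matplotlib 3.10.9, pandas 2.3.3 and numpy 2.4.6. Alternatives were the deposited scale, median centring, pseudocounts of 1 and 64, a filter at 100, the mean of all probe sets, fits to the groups compared, a replicate block, omission of 3 arrays that an earlier analysis found apart, and each array left out in turn.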

Additional observations from a re-analysis of the deposited data

Results flagged for a closer look

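The change from 6 to 24 h was not the same in the 3 constructs, by the interaction test of the limma model. It differed between ER-MyoD wt and empty retrovirus for 41 of 44 members, between ER-MyoD RRR and empty retrovirus for 28, and between RRR and wt for 8. Against empty retrovirus, the wt change was more negative by a log2 difference of -2.68 for Cenpa, -2.68 for Cdc20 and -2.36 for Mki67. The RRR change was more negative by -2.11 for Ccnb2 and -1.93 for Cenpa. For Ndc80 the fitted value was -2.29, of uncertain size because its RRR signals at 24 h lay at or below the pseudocount of 16. Between the fusions, the change was less negative in RRR by 1.96 for Mki67, 1.29 for Nuf2, 1.24 for Smc2, 1.20 for Nusap1, 1.01 for Mad2l1, 0.98 for Anln, 0.94 for Top2a and 0.70 for Cdk1. With the mean of all probe sets of a gene, Smc2 (0.54, adjusted p = 0.431, limma), Nusap1 (0.44, adjusted p = 0.352) and Top2a (0.29, adjusted p = 0.483) did not pass. Cdk1 did not pass by that mean (adjusted p = 0.0521), on the deposited scale (0.57, adjusted p = 0.162) or with median centring (0.48, adjusted p = 0.47). With median centring, or in a fit to the groups compared, only Mki67, Nuf2 and Nusap1 passed. Smc2 did not pass when any 1 array of either fusion at 24 h was left out. Cdk1 did not pass when any 1 ER-MyoD wt array at 6 h was left out.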

How the results depend on the processing

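Of 288 member counts recomputed under another setting, 258 stayed within 1.5 times the count reported and 30 did not, all but 2 of them in comparisons of ER-MyoD RRR with wt. Median centring gave 2 members for RRR minus wt at 24 h in place of 17, 0 at 6 h and 0 at 12 h, 3 for the interaction between the fusions in place of 8, and 17 for RRR minus empty retrovirus at 12 h in place of 11. Fits to the groups compared gave 4 at 24 h, 0 at 6 h, 0 at 12 h and 3 for the interaction. A pseudocount of 1 gave 1 at 6 h and 0 at 12 h, the filter at 100 gave 14 for the interaction, and omitting the 3 arrays that stood apart gave 8 at 6 h and 13 for the interaction. The cause was not tested.

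Leaving out 1 array at a time, RRR minus wt ranged from 0 to 7 members at 6 h, from 0 to 0 at 12 h and from 11 to 17 at 24 h, the interaction between the fusions from 5 to 14, and wt minus empty retrovirus at 12 h from 8 to 13 (14 with all arrays). Of 81 values of named members, 80 kept their direction under every alternative run, and 151 of 1299 recomputed values no longer passed. The difference of Smc2 in wt minus empty retrovirus at 12 h turned to 0.10 with the mean of all its probe sets.

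With the replicate number as a replicate block, the counts were 17 for RRR minus wt at 24 h, 3 at 6 h, 10 for the interaction between the fusions and 39 for wt minus empty retrovirus at 24 h. The numbers were not treated as pairing the samples: same-numbered arrays of different groups deviated together with r from -0.108 to 0.176, and 7 of 135 pairs exceeded 0.1. For 20 of 30 arrays the nearest array of another group carried the same number. That is more than an even spread over the 3 numbers would give. It is a hint from the data and not the design, and whether same-numbered arrays shared a batch was not tested. Dim members, such as Ndc80 at 24 h, are limited by signal near background.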
